A study of Mus musculus with 9 samples.

Results

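The total RNA profile of the control embryonic mouse cortex was described from the 3 libraries titled control, replicates 1 to 3, of the 9 libraries in the series. The other libraries, 3 labelled sfpq_hetero_KO and 3 labelled sfpq_homo_KO, were not analysed here. All 3 control samples were cerebral cortex of E13.5 embryos on a mixed C57BL/6, C57BL/6J and CBA background, and the cell type is labelled as neuronal stem cell plus neuron. The labels call these samples controls and do not give the alleles they carry, so wild-type status is not stated. Neither do they say whether a sample was 1 embryo or several. RNA was depleted of ribosomal RNA without selection for poly(A) tails, and the libraries kept strand. Levels were given as RPKM, that is reads per kilobase of transcript, scaled to the mapped reads of each library, for 30978 RefSeq transcripts in each library. These transcripts belonged to 23201 named genes, each represented here by 1 transcript.

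At this stage the dorsal telencephalon is a dividing epithelium that has begun to make neurons. Radial glia divide at the ventricle, intermediate progenitors above them divide to give neurons, and the earliest neurons gather in the preplate and cortical plate. Blood vessels, meninges, microglia and blood cells are taken along with the tissue when the cortex is dissected. Sequencing without poly(A) selection also reads RNAs that lack a poly(A) tail, among them the mRNAs of replication-dependent histones, small nucleolar RNAs (snoRNAs) and the RNA subunits of RNase P and RNase MRP.

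Low RPKM values fell near whole reads at an estimated depth of 176 M reads in control 1, 204.5 M reads in control 2 and 172 M reads in control 3, which is approximate because 69.3% to 71.1% of low values came within 0.1 of a whole read. No pair of files was identical. A mean of at least 1 RPKM was reached by 10874 genes, or 46.9% of those listed, with 10751 genes at that level in control 1, 10843 in control 2 and 10983 in control 3. At 10 RPKM the count was 4792 genes, at 100 RPKM it was 590 and at 1000 RPKM it was 32, while 4974 genes were listed at 0 in all 3 libraries. The median of the genes with at least 1 RPKM was 8.20 RPKM. Differences between these libraries are given with their SD and without a test, since all belong to 1 group.

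Sfpq, the splicing and paraspeckle protein gene that the series deletes in its other groups, stood at 168 RPKM in control 1, 187 in control 2 and 201 in control 3 (185 ± 16.8, mean ± SD, n = 3), rank 317 of all genes. Of the other members of its DBHS family, Nono lay higher (340, 375 and 424 RPKM) and Pspc1 lower (100 to 103). The 3 ranges did not overlap. All 20 listed hnRNP and DBHS genes passed 1 RPKM and 15 passed 100 RPKM, with a median of 192 RPKM. Hnrnpk led the list at 564 to 586 RPKM. Of 21 genes for splicing regulators of neurons, a list drawn up after values had been seen, 18 passed 1 RPKM. Ptbp2, the neuronal paralog of the polypyrimidine tract binding protein, was at 205, 208 and 199 RPKM, against 18.4, 20.9 and 20.8 RPKM for Ptbp1, a ratio of 9.56 to 11.1. Nova2 and Srrm4, regulators of neuronal exons, were at means of 0.272 and 0.307 RPKM.

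The highest level in every control library belonged to a non-coding RNA. Rmrp, the RNA of RNase MRP, which processes ribosomal RNA precursors, was at 22954, 22364 and 19196 RPKM. Its level was 4.03, 3.79 and 3.21 times that of the next gene in controls 1, 2 and 3. Rpph1, the RNA of RNase P, which trims the 5′ ends of transfer RNAs, was at 5543, 5901 and 4270 RPKM and had rank 4. Both RNAs are made by RNA polymerase III, and both were lowest in control 3. The Rmrp sequence is shown because this 271-base RNA alone took 0.761% of all read-equivalents, that is RPKM multiplied by transcript length. It comes from chr4:43492788-43493058 on the minus strand of GRCm38, whose annotation lists it as an RNase MRP RNA.
Rmrp: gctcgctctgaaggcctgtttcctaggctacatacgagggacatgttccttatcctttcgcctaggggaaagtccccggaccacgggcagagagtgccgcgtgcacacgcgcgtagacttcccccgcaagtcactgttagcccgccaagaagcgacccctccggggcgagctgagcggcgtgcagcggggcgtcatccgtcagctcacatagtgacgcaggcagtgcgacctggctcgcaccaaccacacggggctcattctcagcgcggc

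Among coding genes, Tmsb4x led at 5689, 5695 and 5984 RPKM. It encodes thymosin beta 4, which binds actin monomers. Eef1a1, the translation elongation factor that delivers aminoacyl-tRNA, was at 5640, 5507 and 5921 RPKM, so these 2 genes overlapped across libraries. Eef1a1 took the largest share of read-equivalents of any gene, 1.33%. The 30 coding genes with the highest means fell into a few classes. Ribosomal protein genes made up 11 of them, led by Rps21 (2010, 2111 and 2259 RPKM), Rpl7, Rpl26 and Rps14. Replication-dependent histone genes made up 7, led by H1f1 (3248, 3166 and 2844 RPKM) and H1f5. The cytoskeletal genes among them were Tmsb4x, Tuba1a (1913, 1884 and 2206 RPKM), Actb (1201, 1306 and 1354) and Stmn1 (960, 983 and 1174), the last a microtubule-destabilizing protein of dividing and migrating cells. Npm1, Hspa8, Rack1, Naca and Ptma completed the housekeeping part. Only Hbb-y, embryonic beta-like globin, and Fabp7, the brain fatty acid binding protein of radial glia, stood for a cell type. The 100 genes with the most read-equivalents held 19.6% ± 0.29 of all read-equivalents (SD, n = 3), and the 100 with the highest RPKM held 33.5% ± 1.0 of summed RPKM.

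**Figure D1:**
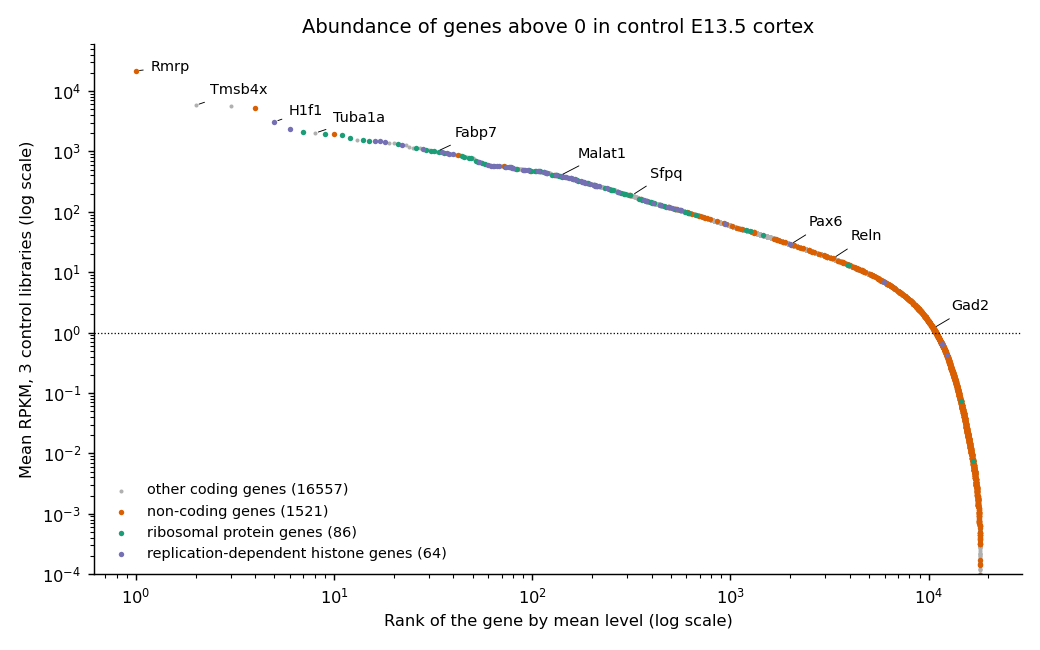
Genes above 0 ranked by mean RPKM over the 3 control libraries, both axes logarithmic; the dotted line marks 1 RPKM, and non-coding genes are drawn over the coding genes at the same ranks. Rmrp stands alone at the top, and histone and ribosomal protein genes crowd the upper ranks, with 59 of 64 and 75 of 87 at or above 100 RPKM.

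The lists of basic cell machinery had medians above 8.20 RPKM, the median of all genes with at least 1 RPKM. Cytosolic ribosomal protein genes had a median of 325 RPKM over 87 genes and together held 10.9% ± 0.0714 of summed RPKM (SD, n = 3). Of 13 tubulin genes, 8 passed 100 RPKM, and the order was Tuba1a, Tubb5 (744 to 756 RPKM), Tuba1b (564 to 701) and Tubb3 (335 to 392). Respiratory chain subunits had a median of 72.7 RPKM and mitochondrial ribosomal proteins one of 22.1 RPKM. Among the glycolytic genes Pkm reached 750, 792 and 870 RPKM. Gapdh was listed at only 11.7 to 12.1 RPKM. Genes with many near-identical processed copies, such as Gapdh and the ribosomal protein genes, are uncertain, because the sources used here do not say how reads with several map positions were counted.

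All 21 radial glia markers passed 1 RPKM, with a median of 13.6 RPKM against 8.20 for all genes at or above 1 RPKM. Fabp7 was at 996, 944 and 1044 RPKM, and the intermediate filament genes Vim (541, 570 and 584) and Nes (156, 179 and 196) followed. None of these 3 had a 1.5-fold range, and their levels did not overlap. Among the transcription factors, Sox2, which keeps neural progenitors undifferentiated, was at 88.3, 96.5 and 107 RPKM. Pax6, which specifies dorsal progenitors, was at 25.0, 28.1 and 33.2 RPKM. Lhx2, a selector of cortical fate, lay between them at 44.1, 51.0 and 54.1 RPKM, so the 3 genes did not overlap. The lowest member was Tnc, an extracellular matrix gene, at 1.86, 1.73 and 2.86 RPKM. Emx1, a marker of the dorsal lineage, was at 59.1, 66.9 and 79.9 RPKM. Six3, a gene of the ventral and anterior forebrain, stayed at or below 0.0911 RPKM.

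Notch signalling holds radial glia in the progenitor state: a ligand on one cell triggers cleavage of the receptor on its neighbour, and the released inner part joins Rbpj and switches on Hes genes. Of 25 pathway genes, a list also drawn up after values had been seen, 22 passed 1 RPKM. Among ligands, Dll1 was highest at 26.4, 28.4 and 30.8 RPKM, with Jag1 at 6.72, 7.66 and 8.76 and Dll3 at 2.88, 2.48 and 2.75. The receptors Notch1 (8.18, 8.89 and 9.98 RPKM) and Notch2 (7.73, 8.89 and 10.8) overlapped, whereas Notch4, a receptor of blood vessels, averaged 0.744 RPKM. The targets Hes1 (41.0, 40.8 and 50.6 RPKM) and Hes5 (14.4, 13.2 and 13.1) did not overlap. Mib1, the ubiquitin ligase that activates the ligands, exceeded all of them at 74.8, 76.6 and 79.6 RPKM.

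All 13 intermediate progenitor markers passed 1 RPKM, with medians of 10.5, 11.0 and 14.6 RPKM in controls 1, 2 and 3. Neurog2, the proneural factor of the dorsal telencephalon, was at 60.2, 59.4 and 67.5 RPKM. Its paralog Neurog1 was at 3.53, 4.08 and 4.17 RPKM. Eomes, the defining factor of intermediate progenitors, was at 24.2, 28.9 and 36.8 RPKM. Gadd45g was at 14.2, 21.9 and 30.7 RPKM and Neurod1 at 5.78, 7.64 and 10.1. In all 3 genes control 1 was lowest and control 3 highest. In 3 of the 13 genes the range over libraries reached 1.5-fold on the RPKM + 0.5 scale, against a background of 2.10% of all 10874 genes. Control 3 was highest for 11 of 13, beside 63.9% of all genes.

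Cell cycle genes were abundant: all 36 passed 1 RPKM, 35 passed 10 RPKM and the median was 43.0 RPKM. Top2a, the topoisomerase of dividing cells, was at 290, 314 and 306 RPKM. Genes of DNA replication came next, with Mcm7 at 198, 212 and 218 RPKM and Pcna at 195, 214 and 201. Ccnd2, the cyclin of cortical progenitors, was at 120, 138 and 152 RPKM, and the mitotic kinase gene Cdk1 was at 67.9, 68.7 and 69.6. Mki67 averaged 18.7 RPKM.

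Markers shared by all neurons had a median of 18.4 RPKM, and 20 of 21 passed 1 RPKM. Tubb3, neuronal tubulin, was at 365, 335 and 392 RPKM. Map2 (92.5, 96.5 and 108 RPKM), Gap43 of the growth cone (91.7, 89.7 and 107) and Stmn2 (68.7, 65.7 and 73.7) were lower, and Map2 and Gap43 overlapped. The lower part of the list held genes of several kinds. The synaptic release genes Snap25 and Syt1 were at 4.13 to 4.79 and 2.55 to 2.64 RPKM, and the early neuronal genes Elavl3 and L1cam were at means of 4.06 and 4.02. The mid-sized neurofilament gene Nefm was at 2.11, 1.93 and 1.44 RPKM, and Rbfox3, which encodes the NeuN antigen, was at 0.751, 0.997 and 1.10. Of 23 genes for transmitter receptors and channels, added after values had been seen, 12 passed 1 RPKM. Gria2, an AMPA receptor subunit, was highest at 13.7 ± 0.26 RPKM (SD, n = 3), while the NMDA receptor subunit genes Grin2b and Grin1 averaged 0.604 and 0.335 RPKM.

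Of 21 markers of cortical excitatory neurons, 19 passed 1 RPKM and the median was 7.73 RPKM. Neurod6, an early factor of these neurons, was at 89.7, 95.9 and 115 RPKM. The deep-layer factors Bcl11b (5.75, 6.19 and 7.36 RPKM), Tbr1 (5.34, 6.36 and 6.02) and Fezf2 (3.64, 4.15 and 4.15) lay above the upper-layer gene Cux2 (0.658, 0.767 and 0.912) in every library. Other upper-layer factors were above the deep-layer ones, with Cux1 at 18.2, 19.8 and 22.4 RPKM, Pou3f3 at a mean of 37.5 and Pou3f2 at one of 10.6. Foxp2, Nr4a2 and Zfpm2, also of deep layers, were low at means of 1.88, 1.32 and 1.24 RPKM, so the layer groups overlapped. The vesicular glutamate transporter of early neurons, Slc17a6, was at 11.7, 12.2 and 13.2 RPKM, above Slc17a7 at 1.39, 1.68 and 1.99.

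Cajal-Retzius cells, the reelin-secreting neurons of the marginal zone, were represented by Reln at 14.7, 17.5 and 18.3 RPKM and Calb2 at 14.2 ± 0.559 (SD, n = 3). Trp73, a defining marker, was at 0.544, 0.578 and 0.662 RPKM, and 6 of 11 markers passed 1 RPKM. Markers of interneurons and of the ventral telencephalon, where interneurons are born, were low. Their medians were 0.935 RPKM (7 of 16 genes at 1 RPKM or more) and 0.80 RPKM (4 of 11). Gad1 and Gad2, which make GABA, were at 1.15, 0.706 and 0.507 RPKM and at 1.83, 1.06 and 0.628 RPKM. In a bulk sample, fewer cells of a type and less RNA per cell cannot be told apart.

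Several of these ventral and interneuron genes were highest in control 1 and, except for Lhx6, lowest in control 3. Lhx8, a factor of the subpallium, was at 6.67, 1.09 and 0.922 RPKM. Isl1, a striatal progenitor factor, was at 7.37, 4.97 and 2.54 RPKM. The interneuron factor Dlx1 was at 8.68, 5.45 and 3.99 RPKM. Control 1 was highest for each of these, for Lhx6 (1.51, 0.408 and 0.729 RPKM), for Nkx2-1 (0.332, 0.142 and 0.0595) and for the antisense RNA Dlx6os1 (22.0, 12.3 and 8.97). Sp8 did not follow this order, at 3.30, 3.35 and 3.32 RPKM, nor did the chemokine receptor gene Cxcr4, at 9.97, 9.70 and 10.1. Of the 4 ventral genes that passed 1 RPKM, control 1 was highest for 3, beside 18.5% of all genes, control 3 was lowest for 3, beside 17.1%, and 2 had a 1.5-fold range, beside 2.10%. Of the 7 interneuron genes that passed, control 1 was highest for 3 and control 3 for 4, beside 63.9% of all genes, and the median deviations were 0.11, -0.05 and -0.04. Relative to all genes, the ventral genes' median deviation on the log2(RPKM + 0.5) scale was 0.45 in control 1, 0.07 in control 2 and -0.57 in control 3. Whether the amount of subpallium in the dissection moved with these values was not tested.

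Hox genes and most markers of surface tissues were at or near 0. No Hox gene of 16, the family that marks hindbrain and spinal cord, exceeded 0.0113 RPKM in any library, and 11 were at 0 in all. Of 16 markers of muscle, skin, cartilage and liver, 1 passed 1 RPKM, namely the collagen gene Col2a1 at 5.55, 6.58 and 7.54 RPKM. Of 15 markers of the cortical hem and diencephalon, 8 passed 1 RPKM. They were led by the Wnt agonist Rspo3 at 17.7 ± 2.25 RPKM (SD, n = 3), with the hem gene Wnt3a at 1.09, 1.48 and 1.53. Outside the Wnt and Rspo genes and Lmx1a, only Otx2 and Lhx9 passed, at means of 5.64 and 3.53 RPKM. Tcf7l2 and Irx3 averaged 0.375 and 0.192 RPKM, and Gbx2 was at 0.551, 0.00685 and 0.0137. Irx1, Foxb1 and Barhl1 had means at or below 0.0117 RPKM. Of 12 markers of the oligodendrocyte and astrocyte lineages, 5 passed 1 RPKM and the median was 0.348 RPKM. The highest were the aldolase gene Aldoc at 82.0, 82.8 and 109 RPKM and the lipid carrier gene Apoe at 29.2, 26.9 and 39.5. At the low end Gfap was at or below 0.0256 RPKM, Sox10 at or below 0.0385, and Mog was at 0. Olfactory receptor genes gave a further floor, since none of 1102 reached 0.1 RPKM and 1075 were at 0 throughout.

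Markers of vessels and of microglia were also detected. Of 18 endothelial genes 14 passed 1 RPKM, with a median of 4.24 RPKM. Cldn5, the tight junction gene of the blood-brain barrier, was at 32.1, 31.2 and 37.8 RPKM and Kdr, the VEGF receptor, at 14.7, 17.5 and 20.8. Pericyte markers had a median of 1.92 RPKM, led by Vtn at 13.1, 15.4 and 19.5. Microglia and macrophage markers had a median of 1.44 RPKM. The receptor Csf1r was at 1.83, 2.49 and 2.73 RPKM, the complement gene C1qa at 3.16, 3.10 and 3.17 and the microglial receptor P2ry12 at 1.09, 1.10 and 0.924. Over all 251 distinct markers of the 17 lists the median level was 2.60 RPKM ± 0.183 (SD of the library medians, n = 3).

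Red blood cell RNA was plentiful by comparison. Hbb-y was at 1340, 1848 and 1432 RPKM, Hba-a1 at 444, 534 and 488 and Hbb-b1 at 446, 457 and 513. The 12 erythroid genes together held 0.692% ± 0.0842 of summed RPKM (SD, n = 3). Control 1 was lowest for all 7 erythroid genes at 1 RPKM or more, beside 56.9% of all genes, and control 2 was highest for 6 of them, beside 17.6%. Gata1, the erythroid transcription factor, averaged 0.0941 RPKM.

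Meninges and choroid plexus genes varied between libraries. Of 13 meningeal genes at 1 RPKM or more, 7 had a 1.5-fold range, against 2.10% of all genes, and control 1 was lowest for 12, beside 56.9%. Col3a1, a fibroblast collagen, was at 68.4, 96.4 and 105 RPKM, Col1a1 at 3.02, 5.41 and 4.78 and the meningeal factor Foxc1 at 3.83, 6.12 and 6.44. Crabp2 went the other way at 40.3, 39.8 and 32.8 RPKM. Of 8 choroid plexus genes, 5 had a 1.5-fold range and control 3 was highest for 7, beside 63.9% of all genes. Ttr, the thyroid hormone carrier secreted by choroid plexus, was at 371, 400 and 587 RPKM. Kcne2, a potassium channel subunit of that epithelium, was at 11.2, 11.1 and 16.9 RPKM. Relative to all genes, the median deviations of the meningeal list were -0.29, 0.14 and 0.12 and those of the choroid plexus list -0.17, -0.07 and 0.26.

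**Figure D2:**
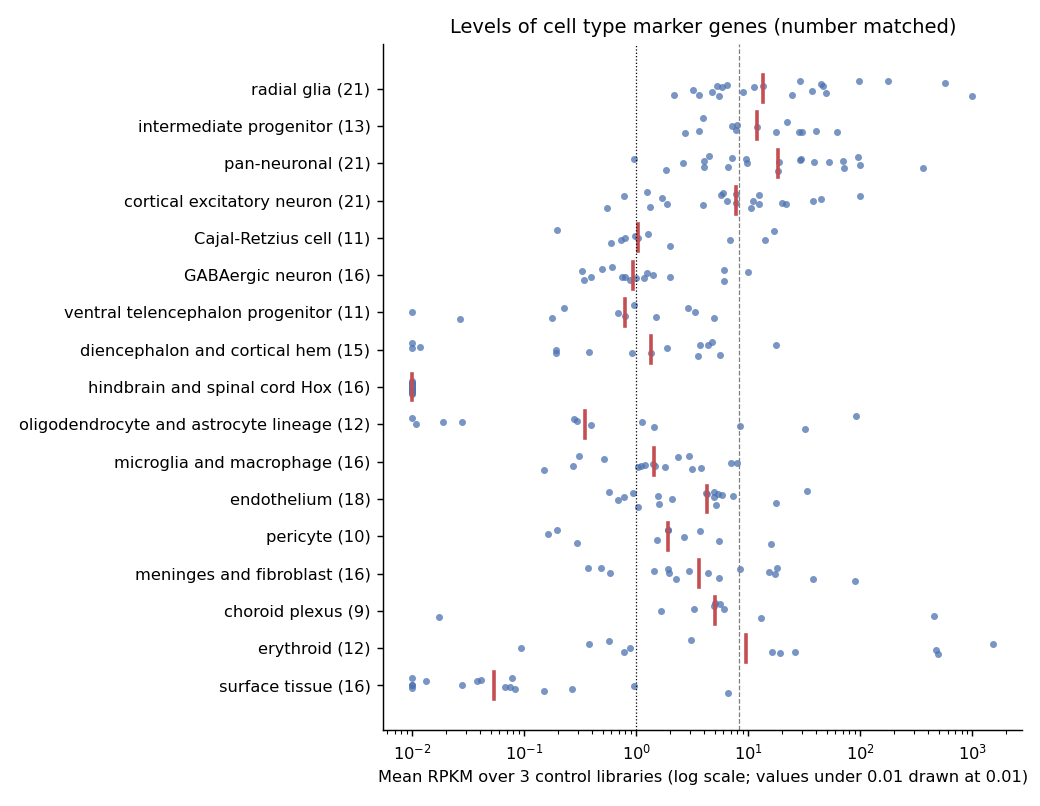
Mean RPKM of every matched marker (blue points) in 17 cell type lists on a logarithmic axis, with the list median in red, the dotted line at 1 RPKM and the dashed line at the median of genes with at least 1 RPKM. The medians of the radial glia (13.6 RPKM), intermediate progenitor and pan-neuronal (18.4 RPKM) lists lie right of the dashed line at 8.20 RPKM, whereas all 16 Hox genes lie under 0.0113 RPKM or at 0.

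**Figure D3:**
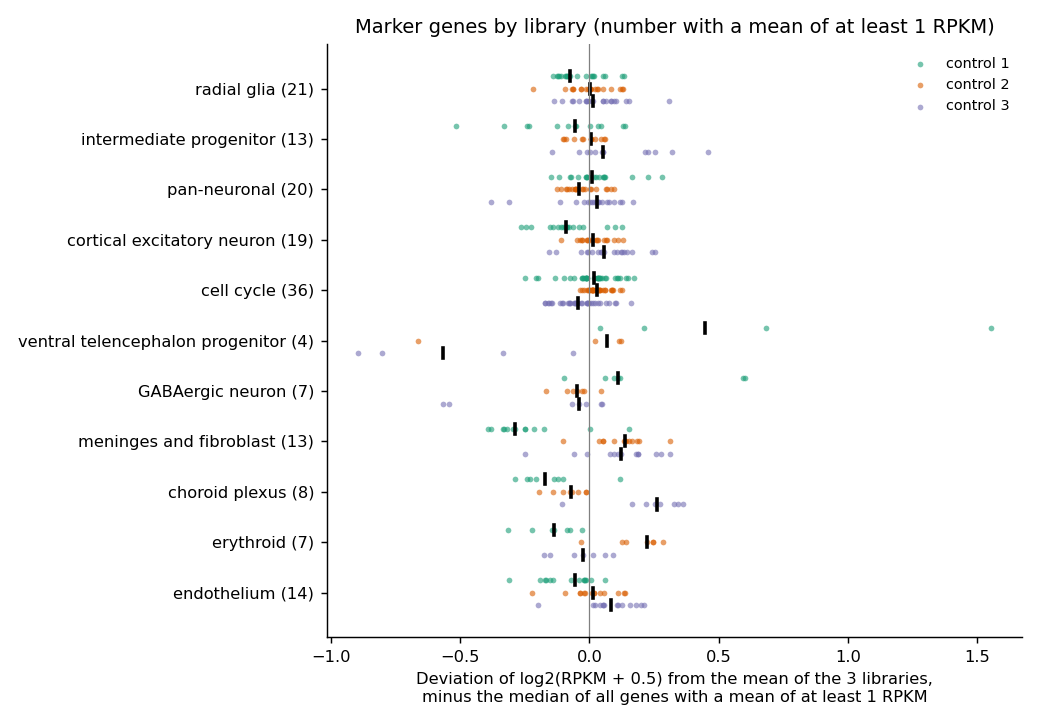
Deviation of each marker with at least 1 RPKM from its mean over the 3 libraries, on the log2(RPKM + 0.5) scale and minus the median of all genes at or above 1 RPKM, with 1 colour per library and black ticks at list medians. The ventral telencephalon list runs from 0.45 in control 1 to -0.57 in control 3, while the radial glia list stays between -0.07 and 0.02.

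Replication-dependent histone genes are transcribed in S phase, and their mRNAs end in a conserved stem-loop in place of a poly(A) tail. The 64 matched genes had a median of 378 RPKM, 62 passed 1 RPKM and 59 passed 100 RPKM. Together they held 9.08% ± 0.973 of summed RPKM and 3.26% ± 0.421 of read-equivalents (SD, n = 3). H1f3 contributed 0.440% of read-equivalents with an annotated transcript of 7425 bases, far longer than a histone mRNA, and without it the share was 2.82%. The linker histone genes H1f1 and H1f5 (2449, 2282 and 2260 RPKM) led the class, but the linker genes H1f3, H1f2 and H1f4 averaged 454, 339 and 272 RPKM. Abundant core histone genes included H2ac18 (1564, 1540 and 1306 RPKM), H2bc3 (1562, 1402 and 1342), H3c3 (1143, 963 and 801) and H4c4 (969, 902 and 867). The lowest members were H2ac1 and H1f6, both testis-type, at means of 0.428 and 0.657 RPKM, and H2bc1 averaged 29.0. Many of these genes are near-identical copies, so the split of reads among them is uncertain. Genes for their special 3′ processing were at lower levels: Slbp, which binds the stem-loop, was at 83.5, 88.5 and 83.0 RPKM, and Lsm11 of the U7 particle was at 2.55, 2.47 and 2.50.

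The stem-loops below are printed because this element takes the place of a poly(A) tail in histone mRNAs. The 16-letter pattern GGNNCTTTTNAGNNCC, in which N is any base, was searched on the sense strand of GRCm38 transcripts. It occurred in 41 of 64 histone genes, or 64.1%, and in 27 of 20170 other coding genes, or 0.134%. Of the 23 histone genes without it, 13 had an annotated transcript that stops at the stop codon, and the H1f1 transcript ends 15 letters into the pattern. No match therefore says only that these letters are not in the annotated transcript. A match does not show that an mRNA lacked a poly(A) tail. Annotated transcripts ran a median of 74 bases past the pattern, and that of H4c4 ran 770 bases past it. Capitals mark the pattern, and positions are on GRCm38, past the stop codon of each gene.
H2ac18, chr3:96246027-96246052, plus strand: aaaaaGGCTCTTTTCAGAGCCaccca
H2bc3, chr13:23747198-23747223, plus strand: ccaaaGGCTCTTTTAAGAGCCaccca
H3c3, chr13:23745042-23745067, minus strand: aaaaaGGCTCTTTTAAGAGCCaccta
H4c4, chr13:23581945-23581970, plus strand: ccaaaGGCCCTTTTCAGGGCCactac
The form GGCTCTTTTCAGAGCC was held by 23 of the 64 genes, and the median level was 403 RPKM for genes with the pattern and 356 RPKM for those without.

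Histone mRNAs were highest in control 1 for 60 of the 62 genes at 1 RPKM or more, beside 18.5% of all genes, and lowest in control 3 for 60, beside 17.1%. A 1.5-fold range was found for 3 of the 62, or 4.84%, beside 2.10% of all genes. Relative to all genes the median deviation was 0.18 in control 1, 0.03 in control 2 and -0.23 in control 3 on the log2 scale. Against genes of the same length class it was 0.13, 0.03 and -0.16. Replacement histones, which have ordinary poly(A) tails and are made throughout the cycle, showed this order in some genes only. Control 1 was highest for 3 of 10, beside 18.5% of all genes, and control 3 was lowest for 3, beside 17.1%. Their median deviations were -0.01, 0.01 and -0.09, and -0.03, 0.01 and -0.07 within their length class. H2az1 followed the order at 939, 916 and 844 RPKM, whereas H2az2 was at 180, 189 and 193 and H3f3b at 238, 225 and 229. Cell cycle genes had median deviations of 0.02, 0.03 and -0.05. Whether RNA quality or library preparation moved with the histone values was not tested.

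SnoRNAs guide the chemical modification of ribosomal RNA and are cut from the introns of host genes. Box C/D members direct methylation and box H/ACA members direct pseudouridylation. Of 69 box C/D genes 31 passed 1 RPKM, with a median of 0.652 RPKM, and 8 were at 0. Of 36 box H/ACA genes 27 passed, with a median of 6.52 RPKM. The most abundant were Snora74a at 902, 885 and 825 RPKM and Snora26 at 229, 177 and 163. A box C/D sequence and a pair of box H/ACA sequences are shown as examples of abundant members, with the boxes that define the class in capitals: TGATGA and CTGA for box C/D, ACA for box H/ACA. They are annotated as snoRNA genes on GRCm38.
Snord82, chr1:86356261-86356330, minus strand: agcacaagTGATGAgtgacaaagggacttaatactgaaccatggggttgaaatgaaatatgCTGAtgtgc
Snora26, chr5:74093530-74093650, plus strand: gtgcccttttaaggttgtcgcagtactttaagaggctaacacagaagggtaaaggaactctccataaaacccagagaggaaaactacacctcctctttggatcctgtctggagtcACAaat
Snora7a, chr6:115807975-115808114, minus strand: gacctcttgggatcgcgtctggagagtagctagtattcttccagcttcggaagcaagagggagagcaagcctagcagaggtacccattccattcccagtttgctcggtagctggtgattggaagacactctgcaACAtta
On the sense strand, TGATGA in the first 20 bases together with CTGA in the last 15 occurred in 42 of 67 box C/D sequences, or 62.7%, against 0.0618% of other transcripts. ACA in the last 9 bases occurred in 31 of 33 box H/ACA sequences, or 93.9%, against 14.1%.

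Control 1 was also highest for snoRNAs, in 26 of 31 box C/D and 20 of 27 box H/ACA genes at 1 RPKM or more, beside 18.5% of all genes. There were 58 such snoRNAs with a known length, beside 86 genes of all kinds under 300 bases. A comparison within that length class therefore sets snoRNAs largely against themselves, and it cannot separate length from class. Median deviations of the box H/ACA genes were 0.21 in control 1 and -0.19 in control 3 against all genes, and within 0.03 of 0 in every library against genes of the same length class. Those of the box C/D genes were 0.28 and -0.15, and 0.06 and 0.02 within their length class. The snoRNA host transcripts had a median of 4.15 RPKM, led by Gas5 at 83.5, 81.4 and 69.0. Among Cajal body RNAs, which guide modification of spliceosomal RNAs, Scarna13 was at 406, 391 and 415 RPKM and did not follow this order. The minor spliceosome RNA Rnu12 did, being highest in control 1 and lowest in control 3, with a mean of 160 ± 24.7 RPKM (SD, n = 3).

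**Figure D4:**
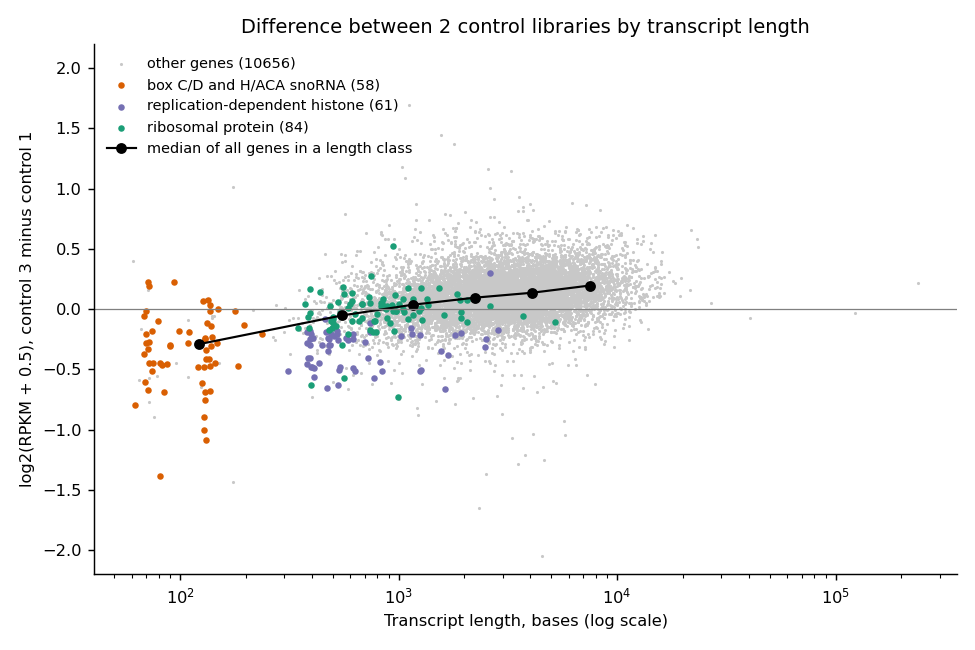
Difference in log2(RPKM + 0.5) between control 3 and control 1 for each gene with at least 1 RPKM and a known transcript length, against that length on a logarithmic axis; black points are medians of length classes, and 8 genes fall outside the drawn range. The class medians run from -0.29 under 300 bases to 0.20 from 6000 bases, and most of the 61 marked histone genes lie below the median of their class. The histone gene H1f3 is drawn among the other genes.

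MicroRNA hairpins were nearly absent, since 513 of 612 were at 0 in all libraries and 9 passed 1 RPKM. The highest was Mir686 at 49.5, 40.8 and 46.4 RPKM. Hairpins are precursors of 49 to 134 bases that are cut to shorter mature RNAs, so these values do not measure mature microRNAs. Some host transcripts were read: Mir9-3hg was at 6.09, 5.52 and 6.45 RPKM and Mir124-2hg at 5.14, 4.86 and 4.63. The hairpin Mir9-1 stayed at or below 0.0653 RPKM and Mir124a-1 was at 0. Both hairpins belong to other gene copies, so these are not pairs of a host and its own hairpin. Mir17hg, the host of the growth-promoting miR-17 cluster, was at 4.37, 5.12 and 1.05 RPKM, and Mir17 itself was at 0. Mature miR-9-5p, at the Mir9-1 locus, and miR-17-5p are shown with their seeds, bases 2 to 8 that pair with targets, in capitals, from RefSeq on GRCm38; they share no seed.
mmu-miR-9-5p, chr3:88215613-88215635, plus strand: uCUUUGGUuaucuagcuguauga
mmu-miR-17-5p, chr14:115043684-115043706, plus strand: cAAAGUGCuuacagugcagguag

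Long non-coding RNAs were led by 5730408K05Rik at 473, 529 and 538 RPKM. Malat1, a nuclear speckle RNA, came next at 416, 407 and 365 RPKM. Norad, a cytoplasmic RNA that binds Pumilio proteins, followed at 107, 104 and 119, and Pantr1, which neighbours the neural gene Pou3f3, at 95.8, 86.5 and 96.9. Of 34 listed genes 23 passed 1 RPKM. Among these 23, control 1 was highest for 13, beside 18.5% of all genes, and control 3 was lowest for 15, beside 17.1%. Their median deviations were 0.12, 0.005 and -0.17 against all genes. Against genes of the same length class they were 0.11, 0.005 and -0.21. Rian of the imprinted Dlk1 region was at 33.2, 27.6 and 24.5 RPKM, whereas Meg3 of the same region was listed at 0.852, 0.738 and 0.610. Neat1, the paraspeckle scaffold that Sfpq binds, was at 0.253, 0.214 and 0.245 RPKM. The annotated Neat1 transcript used here is its 3004-base form. Rn4.5s, a small rodent RNA, was at 69.1, 78.4 and 25.2 RPKM.

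Across the 10874 genes with at least 1 RPKM, the median SD over the libraries was 0.0886 on the log2(RPKM + 0.5) scale, and the median coefficient of variation was 6.75%. Counting error at the estimated depths would give a median SD of 0.0213. The median SD declined from 0.108 for genes of 1 to 5 RPKM to 0.0679 for those of 100 to 1000 RPKM, and stood at 0.0832 for the 32 genes above. Controls 1 and 2 were closest, with an SD of their log2 differences of 0.150, against 0.173 for controls 2 and 3 and 0.223 for controls 1 and 3. The median gene was 0.11 higher in control 3 than in control 1 on the log2 scale, and the deviations of lists above are relative to that shift. This difference rose with transcript length, from -0.29 in 86 genes under 300 bases to 0.20 in 1369 genes of 6000 bases or more. It also rose with GC content, from -0.03 in genes under 40% GC to 0.16 in those of 55% to 60%, and was 0.13 above that.

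A range of at least 1.5-fold was found for 228 genes, 2.10% of those tested. Without control 1 the count was 65, without control 2 it was 196 and without control 3 it was 58. The highest value lay in control 1 for 62 of the 228 genes, in control 2 for 30 and in control 3 for the others. Of 315 non-coding genes 14.9% had such a range, against 1.71% of coding genes. Some of these non-coding genes were short RNAs with few reads, such as Snord72 with 14.8 to 51.1 estimated reads, where counting error is larger. A 2-fold range was reached by 35 genes.

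The 5 widest ranges were those of sex-linked genes. Ddx3y, Kdm5d, Eif2s3y and Uty of the Y chromosome were at 22.1, 13.9, 8.67 and 7.92 RPKM in control 3 and at or below 0.00108 RPKM in controls 1 and 2. Xist, the RNA that silences an X chromosome in females, was at 3.62 and 3.64 RPKM in controls 1 and 2 and at 0.00324 in control 3. The libraries thus differ in sex, with XX-type expression in controls 1 and 2 and XY-type in control 3, and sex cannot be told apart from other properties of control 3.

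Next came S100a9 and S100a8, granulocyte proteins encoded side by side, at 6.07, 0.371 and 0.321 RPKM and at 2.96, 0.335 and 0.207 RPKM. Lhx8 ranked between them, and Wdfy1, an endosomal protein gene, followed at 5.88, 0.883 and 1.04 RPKM. All 4 were high in control 1 alone. Tmem267 and 4833420G17Rik, which have 1 gene between them on chromosome 13, shared a pattern: they were at 0.789, 4.74 and 2.83 RPKM and at 3.19, 13.9 and 7.78 RPKM. Hddc3, a phosphohydrolase gene, was high in control 2 alone at 3.78, 14.9 and 4.39 RPKM, and A930015D03Rik was high in control 3 alone at 0.946, 0.988 and 4.19. Among abundant genes, Rps18 was low in control 3, at 1264, 1282 and 852 RPKM.

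**Figure D5:**
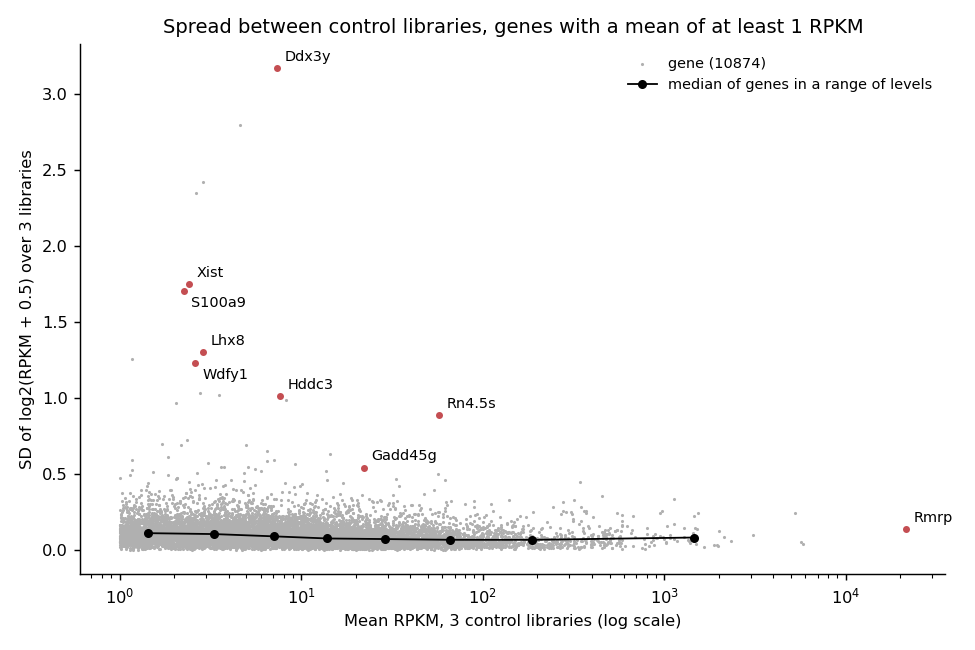
SD of log2(RPKM + 0.5) over the 3 control libraries against mean RPKM (logarithmic axis) for 10874 genes, with medians of ranges of level in black and named genes in red. Most genes lie near the median SD of 0.0886, and the sex-linked genes, S100a9, Lhx8, Wdfy1 and Hddc3 lie far above it.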

How the data were processed

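Total RNA of E13.5 control cortex (3 libraries) was analysed from the deposited RPKM values. Per the labels' protocols, RNA was isolated with RNeasy Plus Micro columns. Ribo-Zero took out ribosomal RNA, and a library protocol that keeps strand preceded sequencing on a HiSeq2000. The submitters' processing notes name CASAVA 1.8.2, TopHat 1.4.1 and mm9. The authors deposited RPKM values per transcript. The program and annotation behind them, any use of strand and the handling of reads with several map positions were not named in these sources.

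Transcripts were named by RefSeq accession, 30507 through the RefSeq table and 178 through GENCODE M21, and 293 had no name and were left out. Each gene was represented by its coding transcript of largest genomic span. Lengths and sequences came from GENCODE M21 or RefSeq on GRCm38, no coordinates were converted, and read-equivalents are RPKM multiplied by length. Spread is the SD of log2(RPKM + 0.5) for genes averaging 1 RPKM or more. A list's deviation is the median over its members, less that of all these genes. Depth was estimated from the spacing of low values, and floors based on it are not given. Genes were named by abundance (30 coding, 15 non-coding, 10 by read-equivalents), by spread (15) and from lists (up to 6 of the highest, the lowest where a list was low, and best known markers); genes outside this rule, such as Gapdh, Meg3, Neat1 and further list members, were picked after their values were seen. Members and lists were chosen with earlier results of these data known, and 4 of 36 curated lists (telencephalic identity, Notch pathway, transmitter receptors and splicing regulators) were added after values were seen; 554 of 586 curated entries were matched. No test was made, because there is 1 group. The code for spread and depth was run on reads drawn at random from the mean levels of these genes at the estimated depths. Such reads hold counting error and whole reads by design, so this run was no test of the estimates themselves. Python 3.11.15, pandas 2.3.3, NumPy 2.4.6 and matplotlib 3.10.9 were used. The labels do not say that replicates were separate embryos, so the SD may be in part technical. Some genes and sequences are not reported here.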

Additional observations from a re-analysis of the deposited data

How the results depend on the processing

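No paired analysis was possible because no test was made and all libraries belong to 1 group. The count of genes at 1 RPKM or more, 10874, was 10911 with the highest-mean transcript of each gene, 10871 with median-ratio scaling, 12173 after RPKM were rescaled to the same total in each library, as TPM are, and 10801 to 10916 with a library left out. At 0.5 and 2 RPKM the counts were 12102 and 9405. The count of genes with a 1.5-fold range, 228, was 58 to 196 with a library left out, 345 and 143 at pseudocounts of 0.1 and 1, 96 among genes averaging 5 RPKM or more and 364 after that rescaling. The median SD, 0.0886, was 0.0577 to 0.0996 with a library left out and 0.0534 with no filter on level. The median over all cell type markers, 2.60 RPKM, became 5.47 after that rescaling, which multiplies every level, and 4.96 among members of at least 0.5 RPKM. Shares of read-equivalents for the top 100 genes and for histones, 19.6% and 3.26%, became 33.5% and 9.08% as shares of summed RPKM, and the histone share was 2.82% without H1f3. Leaving out a library gave 19.4% to 19.7% for the former, 3.05% to 3.47% for histones and 2.49 to 2.61 RPKM for the marker median. Among the deviations of lists, 2 changed sign against genes of the same length class, a setting chosen after the data were seen: box H/ACA in control 1 (-0.000400) and box C/D in control 3 (0.0213). The shortest class was made up largely of snoRNAs, so these 2 lists were compared largely with themselves. The 39 histone genes under 700 bases alone kept the order of libraries. Of 608 values of named genes and lists, 518 moved by no more than their SD or, for deviations of lists, by less than 0.1. Another 88 moved by more, 75 of them with that rescaling, and the other 2 are those that changed sign. Leaving out 1 of 3 libraries cannot move a mean level by its full SD. For gene levels those runs, all among the 518, were therefore no test. Depth limits little at these levels, since the median gene of 1 to 5 RPKM held about 1233 estimated reads.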

Other observations

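Transcribed pseudogenes formed a visible part of the non-coding profile. Of 302 such genes 64 passed 1 RPKM and 7 passed 100 RPKM. Gm15772 was at 1924, 1947 and 2011 RPKM. Oaz1-ps was at 165, 156 and 158 RPKM, beside 166, 159 and 157 for Oaz1, which encodes the antizyme of polyamine synthesis. Tdg-ps2 was at 31.5, 31.9 and 32.8 RPKM beside 28.6, 29.1 and 29.8 for Tdg, a DNA glycosylase gene. Rplp2-ps1 was far below its parent, at 80.0, 82.9 and 81.4 RPKM beside 985, 1023 and 1065. Nlrp5-ps was above its parent, at a mean of 12.3 RPKM beside 0.122. Reads from such copies cannot be told apart here.

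Transcripts of 1 gene could differ in level. Of 4253 genes with more than 1 transcript, 141 had one at least 1.5 times the transcript used here on the RPKM + 0.5 scale. Birc5, a survivin gene of dividing cells, ranged from 9.98 to 62.2 RPKM over its 2 transcripts, and Cux1 from 11.1 to 20.1. Tmsb10 ranged from 334 to 567 RPKM over 3 transcripts.

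Immediate early genes, which rise within minutes of stimulation, were mostly low. Fos was at 0.142, 0.0882 and 0.685 RPKM and Egr1 at 0.0774, 0.0411 and 0.161, while Jun was at 17.5, 19.6 and 25.5. Of 16 genes, 5 passed 1 RPKM. Clustered protocadherins, adhesion genes chosen at random by single neurons, had a median of 1.77 RPKM over 58 genes, and 39 passed 1 RPKM. Control 3 was highest for 36 of those 39, beside 63.9% of all genes.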
